A study of Mus musculus with 12 samples.

Results

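Interleukin-6 (IL-6) family receptors, STATs and SOCS proteins were followed as 9 genes, Il6st, Il6ra, Osmr, Lifr, Stat3, Stat5a, Socs1, Socs3 and Bcl3, taken by symbol from the 45859 genes of the series, and all 9 were found. RNA had been sequenced from mouse lens capsules with their attached lens cells (LCs), all from adults aged 2 months that had undergone experimental cataract surgery, in which the fiber cell mass is removed. Wild-type (WT) mice were C57BL/6, and β8ITG-cKO mice, which lack the β8 integrin gene Itgb8 in the lens, were of a mixed background of C57BL/6 and 129S1/Sv, so strain and genotype cannot be told apart. The floxed Itgb8 allele had been deleted by the MLR10-Cre transgene, which acts in all lens cells from early lens development on. Capsules were taken at 0 h or 24 h post cataract surgery (PCS), with 3 libraries in each of the 4 groups and pooled capsules in each library. No unoperated lens was analysed here, so 0 h PCS is the baseline.

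Most cytokines of the IL-6 family, among them IL-6, leukemia inhibitory factor and oncostatin M, bind receptors that share the subunit gp130, the product of Il6st. The assembled receptor activates Janus kinases, which phosphorylate STAT3 and, in some cells, STAT5, and the STATs then enter the nucleus. SOCS1 and SOCS3 are induced by STATs and shut the receptor complex down, which makes their mRNAs a common readout of recent signaling. The pathway is known from injured epithelia and from the retina, where it takes part in stress and survival responses.

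Values are FPKM, fragment numbers divided by transcript length and sequencing depth, which put genes of different length on 1 scale. A gene passed the test where limma's adjusted p was at most 0.05 over all genes tested, and differences are on the log2(FPKM + 1) scale, which understates the change of genes near or below 1 FPKM. The stricter criteria of the study also ask for a fold of group means above 2, a difference above 2 FPKM and at least 2 FPKM in 1 group. Libraries summed to 446531 to 740140 FPKM, with 36.0% to 49.6% of that in the 10 highest genes. The targeted gene, Itgb8, gave 7.26, 10.8 and 8.42 FPKM in WT 0 h, 6.83, 4.58 and 7.31 FPKM in β8ITG-cKO 0 h, 9.08, 8.38 and 9.58 FPKM in WT 24 h and 9.28, 11.8 and 10.3 FPKM in β8ITG-cKO 24 h, so the genotypes overlapped at 0 h and at 24 h. The deletion removes only part of the gene, so gene-level FPKM cannot check it, and every direction between genotypes rests on the labels. The study tested for the deletion by PCR of lens DNA and by immunofluorescence. It reports no β8 integrin protein in β8ITG-cKO LCs at 0 h PCS or at a later time. WT 0 h replicate 2 stood apart: its 11 photoreceptor markers summed to 1195 FPKM, against 142 and 353 FPKM in the other WT 0 h libraries, and Cryaa, a main crystallin of the lens, was listed at 0. All 7 lens epithelium markers were above 0 in each group. Calls of the 9 genes that change without WT 0 h replicate 2 are given with and without it. The study calls the libraries of a group biological replicates, each of several capsules, and p-values measure the spread between them.

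Over the first 24 h PCS, 7 of the 9 genes rose in WT capsules (Il6st, Il6ra, Osmr, Stat3, Stat5a, Socs3 and Bcl3) and 0 fell, against a background of 20.9% of all 15146 genes tested that rose and 8.81% that fell. In β8ITG-cKO capsules 6 of 9 rose (Il6ra, Osmr, Stat3, Socs1, Socs3 and Bcl3) and 0 fell, against a background of 35.4% that rose and 10.7% that fell. By the stricter criteria 5 rose in WT (background 10.3%) and 4 in β8ITG-cKO (background 11.3%). The median difference of the 9 genes was 1.20 in WT, beside 0.16 over all genes, and 0.94 in β8ITG-cKO, beside 0.23. Between genotypes at 24 h PCS 1 of 9 genes, Stat5a, was lower in β8ITG-cKO (background 0.644%, and 0.286% by the stricter criteria, which it met) and 0 were higher in limma (background 5.64%), while Lifr was the 1 higher and Il6ra, Osmr, Socs1 and Stat5a the 4 lower at an unadjusted p below 0.05 (backgrounds 14.2% and 6.2%). At 0 h PCS 0 of the 8 genes tested passed in limma (background 6.94%, with 4.18% higher and 2.75% lower in β8ITG-cKO), while 4 had an unadjusted p below 0.05 (background 24%).

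**Figure D1:**
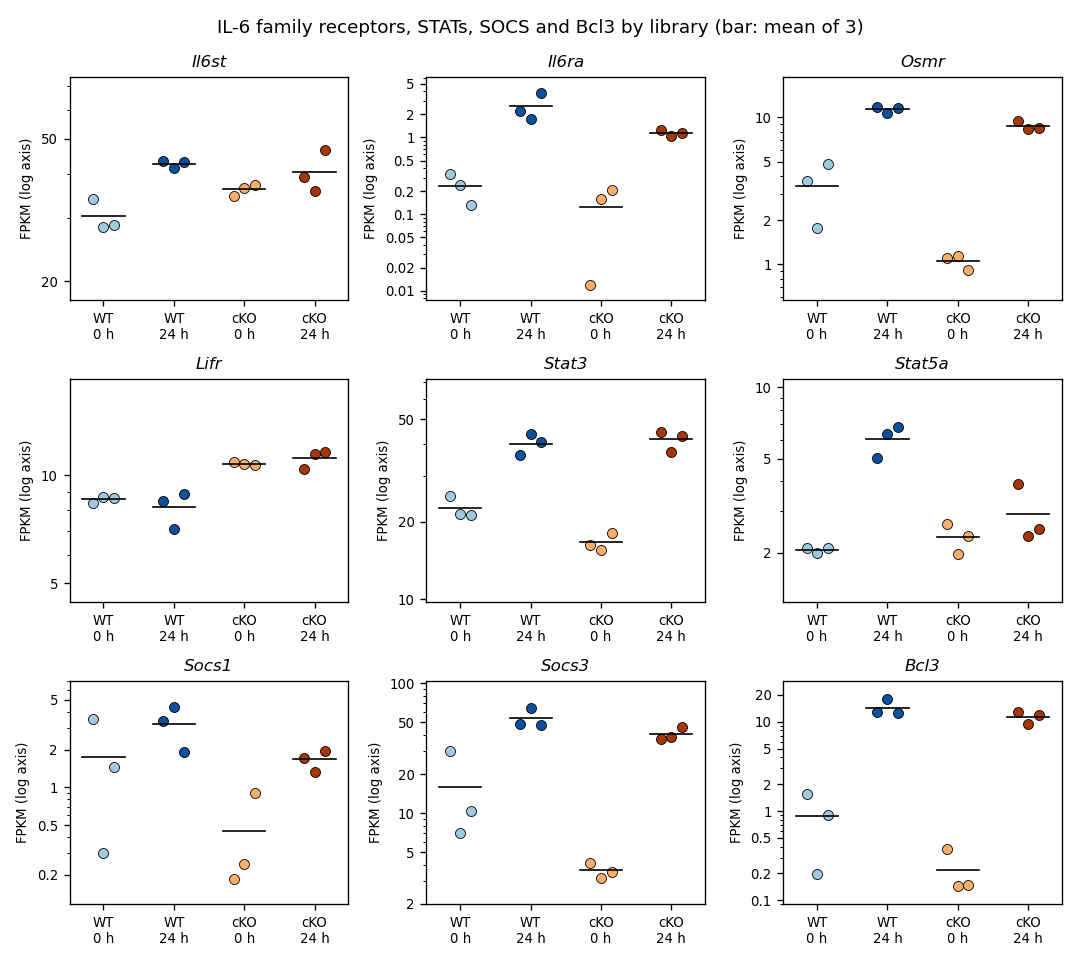
FPKM (log axis, a scale of its own in each panel) of the 9 genes in the 12 libraries, grouped by genotype and hours PCS; points are libraries and bars are means of 3. Osmr, Stat3, Socs3 and Bcl3 lie higher at 24 h than at 0 h in all libraries of both genotypes, while Stat5a lies higher in WT 24 h than in the other 3 groups.

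Among the receptors, Il6st was the most abundant in every group. It encodes gp130, the signaling subunit that most members of this cytokine family use. Il6st measured 34.1, 28.3 and 28.7 FPKM in WT 0 h, 43.2, 41.4 and 43.1 FPKM in WT 24 h, 34.6, 36.4 and 37.2 FPKM in β8ITG-cKO 0 h, and 39.1, 35.7 and 46.4 FPKM in β8ITG-cKO 24 h. All WT 24 h libraries were above all WT 0 h libraries, and the β8ITG-cKO groups overlapped. The rise in WT was small, 1.40-fold by group means, with a log2 difference of 0.48 ± 0.13 (SE) and a limma adjusted p of 0.0310. Once each library was scaled to a common median, the difference was 0.22 and the adjusted p 0.258. The call was lost in 6 of 12 alternative settings, which include leaving out WT 0 h replicate 1 (adjusted p = 0.0607), 2 (0.0928) or 3 (0.0930) and WT 24 h replicate 1 (0.0841) or 2 (0.0634). In β8ITG-cKO the difference was 0.15 ± 0.11 (adjusted p = 0.309).

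Osmr encodes the subunit that pairs with gp130 to form the oncostatin M receptor. It measured 3.68, 1.77 and 4.79 FPKM in WT 0 h and 11.7, 10.7 and 11.7 FPKM in WT 24 h. In β8ITG-cKO it measured 1.10, 1.15 and 0.909 FPKM at 0 h and 9.49, 8.27 and 8.40 FPKM at 24 h. The 4 groups did not overlap, and their order was WT 24 h, β8ITG-cKO 24 h, WT 0 h and β8ITG-cKO 0 h. Osmr rose 3.33-fold by group means in WT (log2 difference 1.55 ± 0.26, limma adjusted p = 0.00480) and 8.28-fold in β8ITG-cKO (2.24 ± 0.11, adjusted p = 1.28e-05). At 24 h PCS the β8ITG-cKO mean was 0.768 times the WT mean, which did not pass the test (-0.35 ± 0.12, adjusted p = 0.161). At 0 h PCS it was 0.308 times the WT mean (-1.04 ± 0.26), and the adjusted p of 0.0531 fell to 0.00945 without WT 0 h replicate 2, where the difference was -1.34. With each library left out in turn, the 0 h difference ran from -1.34 to -0.81 and the adjusted p from 0.00945 to 0.172. Osmr also passed at 0 h PCS with a pseudocount of 0.1 FPKM (adjusted p = 0.0413) and in 1 fit over the 12 libraries (0.0155).

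Lifr encodes the receptor subunit for leukemia inhibitory factor, which also works with gp130. Its levels were 8.40, 8.73 and 8.66 FPKM in WT 0 h, 8.49, 7.08 and 8.89 FPKM in WT 24 h, 10.9, 10.8 and 10.7 FPKM in β8ITG-cKO 0 h, and 10.5, 11.5 and 11.6 FPKM in β8ITG-cKO 24 h. The time points overlapped within each genotype, and every β8ITG-cKO library was above every WT library. Over time Lifr differed by -0.07 ± 0.14 in WT (limma adjusted p = 0.718) and by 0.04 ± 0.09 in β8ITG-cKO (adjusted p = 0.713), with 95% intervals from -0.40 to 0.25 and from -0.16 to 0.25. The second of these turned to -0.23 (adjusted p = 0.0539) after scaling to a common median. Between genotypes Lifr differed by 0.42 ± 0.13 at 24 h PCS (adjusted p = 0.128) and by 0.30 ± 0.10 at 0 h PCS (adjusted p = 0.105), neither of which passed the test, although the former did in 1 fit over the 12 libraries (adjusted p = 0.0259).

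The ratio of Osmr to Lifr FPKM was 0.203 to 0.552 in WT 0 h and 1.31 to 1.51 in WT 24 h, and 0.0849 to 0.106 in β8ITG-cKO 0 h and 0.720 to 0.907 in β8ITG-cKO 24 h. Osmr exceeded Lifr only in the WT 24 h libraries. These ratios were chosen after the values were seen and carry no test.

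Il6ra encodes the IL-6 binding subunit, which in many tissues is made by few cell types, leukocytes among them. It was the lowest of the receptors, at 0.333, 0.238 and 0.132 FPKM in WT 0 h, 2.199, 1.757 and 3.82 FPKM in WT 24 h, 0.0120, 0.158 and 0.205 FPKM in β8ITG-cKO 0 h, and 1.25, 1.05 and 1.14 FPKM in β8ITG-cKO 24 h. Every 24 h library was above every 0 h library, and all WT 24 h libraries were above all β8ITG-cKO 24 h libraries. Il6ra rose in WT by 1.50 ± 0.24 (limma adjusted p = 0.00380) and in β8ITG-cKO by 0.94 ± 0.14 (adjusted p = 0.00122). At 24 h PCS the β8ITG-cKO mean was 0.442 times the WT mean, a difference of -0.70 ± 0.22 that did not pass the test (adjusted p = 0.123, and 0.0359 in 1 fit over the 12 libraries), and at 0 h PCS the gene lay below the minimum level for testing. Il6ra and Stat5a stand in a list that the study drew from these same libraries, so their lower values in β8ITG-cKO 24 h are not independent evidence of a direction.

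The leukocyte markers moved with time in both genotypes. Their 14 genes summed to 8.69 to 14.6 FPKM in WT 0 h, 91.1 to 121 FPKM in WT 24 h, 9.57 to 16.1 FPKM in β8ITG-cKO 0 h and 54.4 to 95.3 FPKM in β8ITG-cKO 24 h. Of the 11 tested, 9 rose in WT (background 20.9%) and 10 rose in β8ITG-cKO (background 35.4%). Between genotypes at 24 h PCS 0 differed in limma (backgrounds 5.64% higher and 0.644% lower). At an unadjusted p below 0.05, 4 (Cxcr2, Itgam, S100a8 and S100a9) were lower in β8ITG-cKO at 24 h PCS (background 6.2%). The change over time was lower in β8ITG-cKO for 1 of the 11 in limma (background 2.56%) and for 5 at an unadjusted p below 0.05 (these 4 and Cd68). For the latter no share over all genes is given here, so that count is not read as a result. The median difference between changes was -0.59, beside 0.005 over all genes. Ly6g and Mpo, both of the neutrophil lineage, were listed at 0 in all 12 libraries, and Ptprc, the pan-leukocyte gene, reached 0.698 to 1.93 FPKM at 24 h. Other genes of the list that neutrophils express did rise. S100a8, S100a9, Csf3r and Cxcr2 averaged 0, 0, 0.154 and 0.399 FPKM in WT 0 h and 13.9, 24.7, 9.29 and 3.71 FPKM in WT 24 h. In β8ITG-cKO they averaged 0, 0.265, 0.251 and 0.460 FPKM at 0 h and 4.33, 10.5, 6.22 and 2.14 FPKM at 24 h. The part of these markers in the rise of Il6ra and the other genes was not tested, and in bulk RNA more cells of a type and more RNA per cell cannot be told apart.

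**Figure D2:**
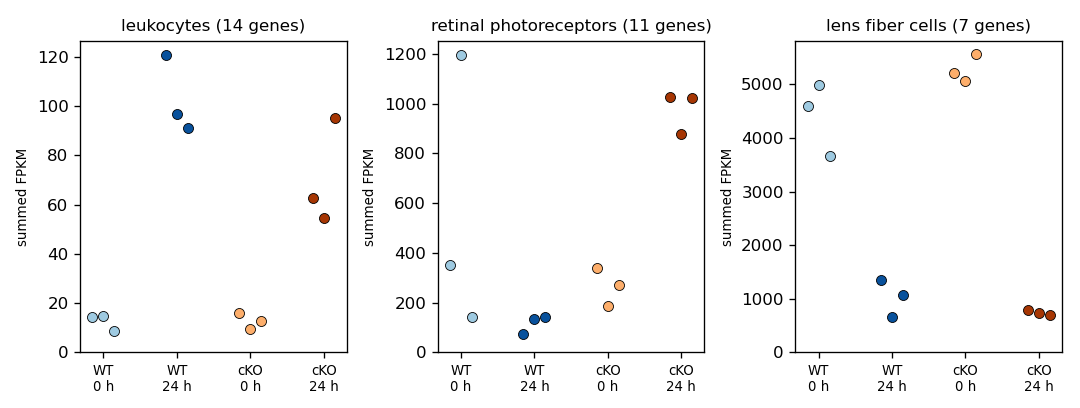
Summed FPKM (linear axes from 0) of 3 marker lists in the 12 libraries; points are libraries. Leukocyte markers lie higher at 24 h in both genotypes, photoreceptor markers are highest in WT 0 h replicate 2 and in the 3 β8ITG-cKO 24 h libraries, and lens fiber markers lie lower at 24 h.

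STAT3 is the main STAT downstream of gp130. Stat3 measured 25.3, 21.4 and 21.2 FPKM in WT 0 h and 36.3, 43.7 and 40.6 FPKM in WT 24 h. It measured 16.3, 15.6 and 18.0 FPKM in β8ITG-cKO 0 h and 44.7, 37.2 and 43.2 FPKM in β8ITG-cKO 24 h. The 24 h libraries of the genotypes overlapped, whereas at 0 h every β8ITG-cKO library was below every WT library. Stat3 rose 1.78-fold by group means in WT (0.80 ± 0.14, limma adjusted p = 0.00580) and 2.51-fold in β8ITG-cKO (1.27 ± 0.11, adjusted p = 8.67e-05). By 24 h PCS the genotypes differed by 0.05 ± 0.14 (adjusted p = 0.869), with a 95% interval from -0.27 to 0.37, and the sign turned after scaling to a common median (-0.014) and without WT 24 h replicate 1 (-0.018). At 0 h PCS the difference was -0.42 ± 0.11 and did not pass the test (adjusted p = 0.0665).

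STAT5A is a close relative of STAT3 that many cytokine and growth hormone receptors use. Stat5a measured 2.09, 1.99 and 2.08 FPKM in WT 0 h and 5.03, 6.36 and 6.77 FPKM in WT 24 h. In β8ITG-cKO it measured 2.66, 1.97 and 2.36 FPKM at 0 h and 3.92, 2.35 and 2.52 FPKM at 24 h. The 3 WT 24 h libraries were above the other 9 libraries. β8ITG-cKO 0 h overlapped both WT 0 h and β8ITG-cKO 24 h, and WT 0 h lay below β8ITG-cKO 24 h. Stat5a rose 2.95-fold by group means in WT (1.20 ± 0.16, limma adjusted p = 0.00197), and in β8ITG-cKO the difference was 0.22 ± 0.17 (adjusted p = 0.336). At 24 h PCS the β8ITG-cKO mean was 0.484 times the WT mean (-0.86 ± 0.19, adjusted p = 0.0439). That call was lost in 7 of 12 alternative settings, with adjusted p from 0.00731 to 0.166 over the 12, among them leaving out WT 24 h replicate 2 (0.121) or 3 (0.0831) and β8ITG-cKO 24 h replicate 2 (0.166) or 3 (0.159).

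The change over time in Stat5a also differed between the genotypes in 1 fit over the 12 libraries. The β8ITG-cKO change minus the WT change was -0.98 ± 0.23 (limma adjusted p = 0.0240), with a background of 2.56% of all genes whose change was lower in β8ITG-cKO. Without β8ITG-cKO 0 h replicate 1 or 3, or β8ITG-cKO 24 h replicate 2 or 3, the adjusted p was 0.0540, 0.0594, 0.0607 and 0.0568, and the difference kept its sign in all 17 alternatives. Stat5a was 1 of 9 genes to pass this test. The ratio of Stat5a to Stat3 FPKM, also chosen after the values were seen, went from 0.0826 to 0.0981 in WT 0 h to 0.139 to 0.167 in WT 24 h, and from 0.127 to 0.163 in β8ITG-cKO 0 h to 0.0582 to 0.0876 in β8ITG-cKO 24 h.

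Stat5a and Stat5b are near-identical copies side by side in the genome, and how reads were split between them is not known. Stat5b, which was in the list of other STATs, averaged 4.67 ± 0.41 FPKM (SD, n = 3) in WT 0 h, 5.97 ± 1.2 FPKM in WT 24 h, 8.63 ± 0.37 FPKM in β8ITG-cKO 0 h and 5.79 ± 0.61 FPKM in β8ITG-cKO 24 h. It was higher in β8ITG-cKO at 0 h PCS (0.77 ± 0.11, limma adjusted p = 0.0119) and fell there by 24 h (-0.51 ± 0.11, adjusted p = 0.00607), while in WT its difference was 0.29 ± 0.17 (adjusted p = 0.241). Its change over time differed between genotypes by -0.79 ± 0.19 (adjusted p = 0.0269), the same sign as that of Stat5a. The 0 h call of Stat5b was lost without β8ITG-cKO 0 h replicate 2 (0.0502) or 3 (0.0765). Stat5a lay on chromosome 11 from 100859351 to 100885169 and Stat3 from 100886806 to 100940242 on the opposite strand, 1636 bases apart in the files' gene models (mm10/GRCm38), which overlap in the GENCODE annotation. The strand setting of the authors' counting is not given in the sources used here, so reads at this junction cannot be assigned with certainty.

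**Figure D3:**
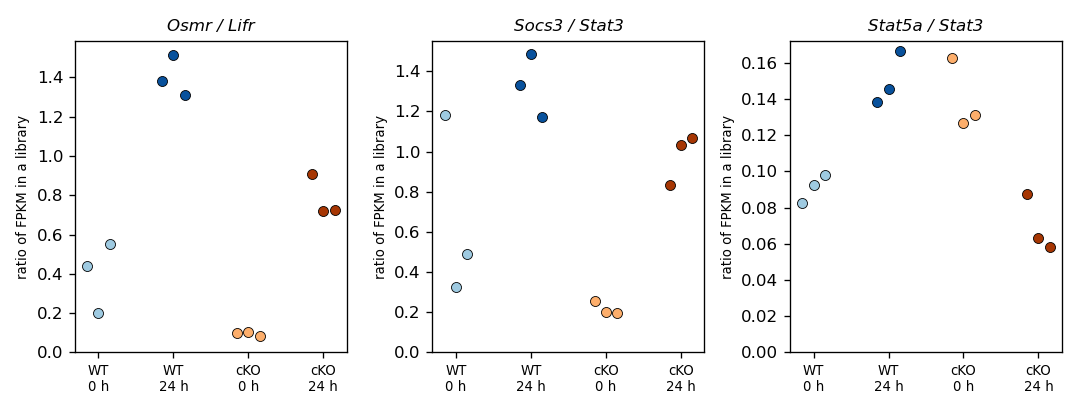
Ratios of FPKM within a library (linear axes from 0) for Osmr to Lifr, Socs3 to Stat3 and Stat5a to Stat3; points are libraries. Osmr exceeded Lifr in the 3 WT 24 h libraries, at 1.31 to 1.51, and Stat5a to Stat3 was highest in WT 24 h and β8ITG-cKO 0 h.

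SOCS3 binds gp130 and blocks the Janus kinases attached to it. Of the 9 genes, only Socs3 held the STAT motif TTCNNNGAA in the 250 bases before its annotated start, and the same ends spaced 4 bases apart were found before none of them. Both motifs read the same on either strand. The shorter was found before 8.13% of 27025 mouse genes and 7.02% of 32851 starts, and the longer before 6.757% of genes and 5.854% of starts, so 1 of 9 is near the share of all genes. The stretch shown carries that match, in capitals, in RefSeq sequence of GRCm38.p6 at chr11:117969501-117969530 on the minus strand, outside every GENCODE exon.
Socs3: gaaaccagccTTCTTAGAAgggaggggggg
The match ran from base -154 to base -146 relative to the start of this RefSeq window. Both the files and RefSeq extend Socs3 further upstream, to 117970342 and 117970336, so the window lies within the gene's annotated span. It describes the letters in this window, and binding was not measured here.

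Socs3 measured 29.9, 7.03 and 10.4 FPKM in WT 0 h and 48.4, 64.9 and 47.7 FPKM in WT 24 h. It measured 4.16, 3.16 and 3.51 FPKM in β8ITG-cKO 0 h and 37.2, 38.5 and 46.1 FPKM in β8ITG-cKO 24 h. The groups did not overlap, and the WT 0 h libraries were the most scattered, 4.25-fold from lowest to highest, against 1.24-fold to 1.36-fold in the other groups. Socs3 rose 3.41-fold by group means in WT (1.94 ± 0.45, limma adjusted p = 0.0157) and 11.2-fold in β8ITG-cKO (3.17 ± 0.12, adjusted p = 4.14e-06). The WT call was lost without WT 0 h replicate 3 (adjusted p = 0.0530), without WT 24 h replicate 2 (0.0593) and with no filter on low values (0.0603). By 24 h PCS the β8ITG-cKO mean was 0.757 times the WT mean (-0.39 ± 0.17, adjusted p = 0.250). At 0 h PCS it was 0.229 times the WT mean (-1.62 ± 0.43, adjusted p = 0.0651), and without WT 0 h replicate 2 the difference was -2.03 with an adjusted p of 0.0322, while 1 fit over the 12 libraries gave 0.0251. With each library left out in turn, the 0 h difference ran from -2.03 to -1.06 and the adjusted p from 0.0322 to 0.183.

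SOCS1 acts on the Janus kinases directly. Socs1 was low, at 3.49, 0.297 and 1.45 FPKM in WT 0 h, 3.36, 4.40 and 1.93 FPKM in WT 24 h, 0.186, 0.245 and 0.906 FPKM in β8ITG-cKO 0 h, and 1.71, 1.34 and 1.96 FPKM in β8ITG-cKO 24 h. The WT groups overlapped over an 11.8-fold range at 0 h, and the β8ITG-cKO groups did not overlap. Socs1 rose in β8ITG-cKO by 0.91 ± 0.21 (limma adjusted p = 0.00907, and 0.0741 in 1 fit over the 12 libraries), whereas the WT difference was 0.76 ± 0.44 (adjusted p = 0.225) and 0.31 without WT 0 h replicate 2. The rises were not shown to differ, with a difference of 0.16 ± 0.54 between them (adjusted p = 0.898) and a 95% interval from -1.02 to 1.33. Between genotypes Socs1 differed by -0.63 ± 0.24 at 24 h PCS (adjusted p = 0.196, and 0.0414 without WT 24 h replicate 3) and by -0.78 ± 0.42 at 0 h PCS (adjusted p = 0.307), the latter -1.23 without WT 0 h replicate 2 (adjusted p = 0.0757).

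BCL3 is an IκB family protein that acts in the nucleus with NF-κB subunits, and its gene is also known to respond to STAT3. Bcl3 measured 1.56, 0.199 and 0.906 FPKM in WT 0 h and 12.7, 17.8 and 12.4 FPKM in WT 24 h. It measured 0.372, 0.144 and 0.146 FPKM in β8ITG-cKO 0 h and 12.9, 9.33 and 12.05 FPKM in β8ITG-cKO 24 h. Every 24 h library was far above every 0 h library, and the genotypes overlapped at both time points. Bcl3 had the largest rise of the 9 genes in both genotypes, 3.07 ± 0.29 in WT (limma adjusted p = 0.000539) and 3.34 ± 0.15 in β8ITG-cKO (adjusted p = 8.38e-06), and these calls held in all 12 alternatives of each. The genotypes differed by -0.29 ± 0.19 at 24 h PCS (adjusted p = 0.431) and by -0.57 ± 0.28 at 0 h PCS (adjusted p = 0.259), the latter -0.86 without WT 0 h replicate 2 (adjusted p = 0.0609). Gm16174, an antisense gene at the Bcl3 locus, averaged 0.0363 FPKM in WT 0 h, 1.23 FPKM in WT 24 h, 0.268 FPKM in β8ITG-cKO 0 h and 1.25 FPKM in β8ITG-cKO 24 h, and reads of overlapping genes cannot be told apart without the strand setting.

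**Figure D4:**
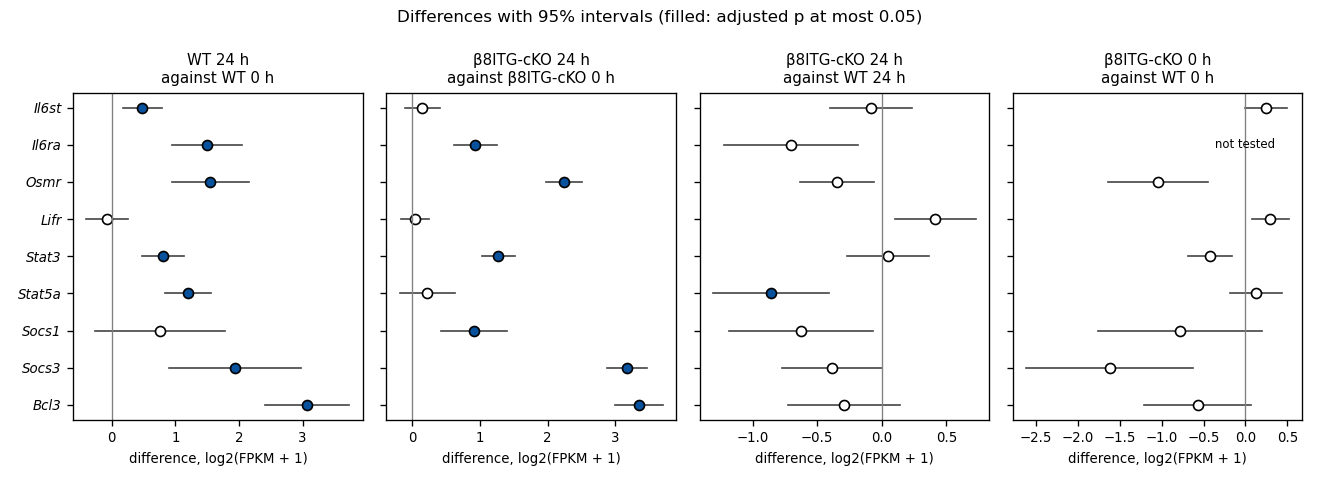
Differences of the 9 genes in 4 comparisons (x axis, log2(FPKM + 1), with a scale of its own in each panel; lines are 95% intervals from limma). Filled points have an adjusted p of at most 0.05: 7 in WT and 6 in β8ITG-cKO over time, Stat5a between genotypes at 24 h, and 0 at 0 h, where Il6ra was not tested.

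Immediately after surgery, at 0 h PCS, the means of Osmr, Stat3, Socs1, Socs3 and Bcl3 were lower in β8ITG-cKO than in WT, and those of Il6st, Lifr and Stat5a were higher. Osmr, Stat3 and Socs3 were lower and Il6st and Lifr higher in β8ITG-cKO with no overlap of the groups, while Stat5a, Socs1 and Bcl3 overlapped. None of the 8 passed the test in limma, and Osmr, Lifr, Stat3 and Socs3 had unadjusted p-values of 0.00390, 0.0144, 0.00594 and 0.00573. Groups that did not overlap made up 12.8% of all genes tested in the lower and 18% in the higher direction. The median difference of the 8 genes was -0.49, beside 0.02 over all genes. For the 9 genes at 24 h PCS the median was -0.35, beside 0.03.

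The change over time was compared between genotypes for all 9 genes, since the 0 h baselines lay apart. Beside Stat5a, 8 of 9 did not pass, with a background of 6.83% of genes whose change was larger in β8ITG-cKO. The β8ITG-cKO change exceeded the WT change by 1.24 ± 0.52 for Socs3 (limma adjusted p = 0.167), 0.69 ± 0.30 for Osmr (adjusted p = 0.179) and 0.47 ± 0.17 for Stat3 (adjusted p = 0.103). Without WT 0 h replicate 2, Socs3 (1.64, adjusted p = 0.0496) and Osmr (0.996, adjusted p = 0.0112) passed. With each library left out in turn, the difference ran from 0.67 to 1.64 for Socs3 (adjusted p up to 0.282) and from 0.47 to 0.996 for Osmr (up to 0.315). With no library left out, the difference was -0.57 ± 0.27 for Il6ra (adjusted p = 0.230) and -0.33 ± 0.16 for Il6st (adjusted p = 0.248), and for Lifr, Socs1 and Bcl3 the adjusted p ranged up from 0.670.

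**Figure D5:**
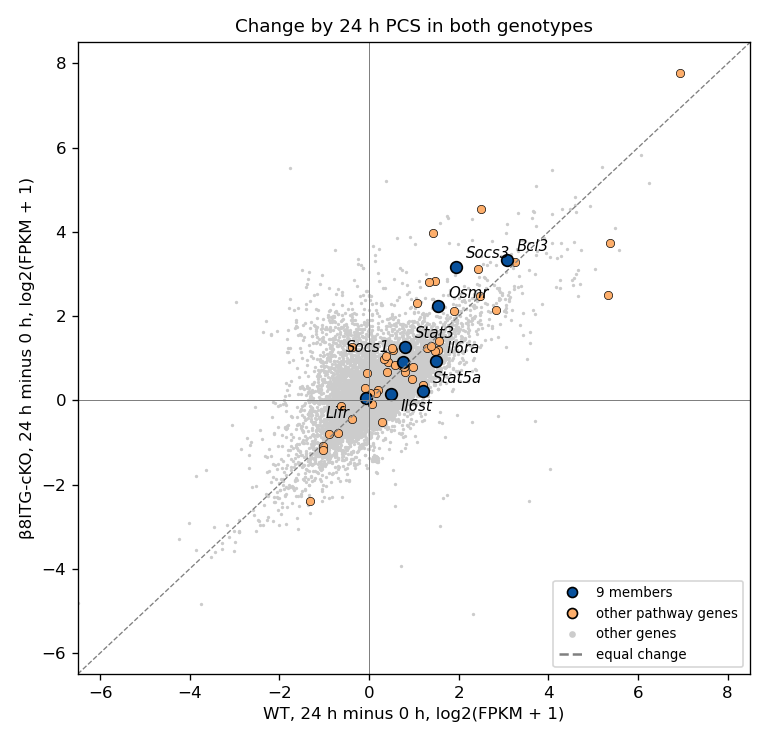
Log2 change from 0 h to 24 h PCS in WT (x axis) and β8ITG-cKO (y axis) for 14488 genes tested in both; dark points are the 9 genes, orange points the other pathway genes, the dashed line equal change, and 5 genes lie beyond the axes. Bcl3 and Socs3 lie far to the upper right, Stat5a, Il6ra and Il6st lie below the dashed line, and Lifr lies near 0 on both axes.

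The rest of the pathway was followed in 7 lists of 54 genes. In WT 48 were tested, of which 25 rose and 5 fell (backgrounds 20.9% and 8.81% of all genes tested). In β8ITG-cKO 47 were tested, of which 33 rose and 7 fell (backgrounds 35.4% and 10.7%). The same backgrounds apply to the changes over time in each list below. Among the ligands, 5 of 8 tested rose and 1 fell in WT, and 4 of 6 rose and 2 fell in β8ITG-cKO. Lif, the ligand of the Lifr subunit, went from 1.21 ± 0.24 FPKM (SD, n = 3) to 21.0 ± 7.3 FPKM in WT (3.26 ± 0.25 SE, limma adjusted p = 0.000246) and from 0.229 ± 0.016 to 11.2 ± 2.6 FPKM in β8ITG-cKO (3.29 ± 0.17, adjusted p = 1.39e-05). It was lower in β8ITG-cKO at 0 h PCS (-0.84 ± 0.16, adjusted p = 0.0241). Of the 4 ligands tested at 0 h PCS, 1 was lower and 1 higher in β8ITG-cKO (backgrounds 2.75% and 4.18%). Clcf1, which encodes a cytokine that signals through gp130, rose by 2.43 in WT and by 3.13 in β8ITG-cKO, and Il11 rose by 1.55 and 1.20. The WT call of Il11 was lost without any of WT 0 h replicates 1, 2 and 3 (adjusted p = 0.0768, 0.0770 and 0.0834). Cntf, which encodes ciliary neurotrophic factor, was the ligand higher in β8ITG-cKO at 0 h PCS, averaging 15.2 FPKM against 7.07 FPKM in WT 0 h. That call was lost in several settings, among them scaling to a common median (limma adjusted p = 0.0501) and without WT 0 h replicate 2 (0.104) or 3 (0.105). Over time Cntf fell in β8ITG-cKO by 2.38 on the log2 scale, and its WT difference was -1.31 (adjusted p = 0.133). Ctf1, which encodes cardiotrophin-1 and was named after its values were seen, fell by 1.02 in WT and by 1.08 in β8ITG-cKO on the log2 scale. Osm rose in WT by 0.99 (adjusted p = 0.00495). Osm and Il6, named here after their values were seen as the ligands of Osmr and Il6ra, averaged 1.003 and 0.979 FPKM in WT 24 h and 0.683 and 0.633 FPKM in β8ITG-cKO 24 h.

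The ligand-binding receptors Cntfr and Il11ra1 fell in both genotypes, in contrast to Osmr and Il6ra, with differences of -1.03 and -0.70 in WT and -1.18 and -0.76 in β8ITG-cKO. Jak1, the Janus kinase that gp130 uses most, rose by 0.58 in WT and 0.83 in β8ITG-cKO. Without WT 0 h replicate 1 the WT rise of Jak1 had an adjusted p of 0.0550, and without WT 0 h replicate 2 so did the WT fall of Cntfr (0.0550). All 4 Janus kinases rose in β8ITG-cKO and Jak1 and Tyk2 in WT, but after scaling to a common median the calls of Tyk2 in β8ITG-cKO (0.29, adjusted p = 0.0778) and Jak1 in WT (0.32, adjusted p = 0.0571) were lost. Between genotypes 0 of 4 differed in limma (backgrounds 5.64% higher and 0.644% lower at 24 h PCS, and 6.94% in either direction at 0 h PCS). At an unadjusted p below 0.05, 1 (Jak3) was higher in β8ITG-cKO at 24 h PCS (background 14.2%). At 0 h PCS 2 (Jak1 and Tyk2) differed at that level (background 24% in either direction). Stat2 and Stat6 rose in both genotypes, by 1.30 and 1.48 in WT and 1.25 and 1.18 in β8ITG-cKO. Socs5 rose in both genotypes (1.38 and 1.30), and Socs7 was higher in β8ITG-cKO at 24 h PCS (0.80 ± 0.13, limma adjusted p = 0.0112), a call lost without β8ITG-cKO 24 h replicate 2 (0.0653) or 3 (0.0574). Of the other SOCS family genes 1 of 5 rose in WT (Socs5) and 4 of 6 in β8ITG-cKO (Cish, Socs2, Socs5 and Socs7). Of 8 other inhibitors and adaptors, Ptpn6 and Pias4 rose and Pias1 fell in WT, while Ptpn1, Ptpn2 and Pias4 rose and Pias2 fell in β8ITG-cKO. The Pias1 call was lost without WT 0 h replicate 2 (adjusted p = 0.0641) or 3 (0.0633) or WT 24 h replicate 1 (0.0592) or 2 (0.0584). The WT call of Pias4 was lost without WT 0 h replicate 1 (0.0874) or 3 (0.0667) or WT 24 h replicate 2 (0.0708) and with no filter on low values (0.0504). The β8ITG-cKO call of Pias2 was lost without β8ITG-cKO 0 h replicate 2 (0.0505) or 3 (0.0630). Socs7 was among the 2 of 49 pathway genes that passed between genotypes at 24 h PCS, both higher in β8ITG-cKO (background 5.64%), and 0 of 49 were lower in limma (background 0.644%). At an unadjusted p below 0.05, 4 were lower (Lif, Mcl1, Pim1 and Ptpn6), against a background of 6.2%.

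Of 17 genes known as STAT3 targets, 12 rose and 1 fell in WT (backgrounds 20.9% and 8.81%). In β8ITG-cKO 15 rose and 1 fell (backgrounds 35.4% and 10.7%). The medians were 1.43 in WT and 2.32 in β8ITG-cKO, beside 0.16 and 0.23 over all genes. Hif1a, named after its values were seen, was the gene that fell, by 0.89 in WT and by 0.79 in β8ITG-cKO on the log2 scale. Lcn2, Serpina3n, Timp1 and Cebpd rose by 6.94, 5.38, 5.33 and 2.49 in WT. In β8ITG-cKO Lcn2, Cebpd, Junb and Serpina3n rose by 7.78, 4.56, 3.96 and 3.74. None of the 17 passed between genotypes at 24 h PCS in limma (backgrounds 5.64% higher and 0.644% lower). At an unadjusted p below 0.05, 2 (Mcl1 and Pim1) were lower in β8ITG-cKO (background 6.2%). At 0 h PCS 15 were tested, and 6 were lower and 2 higher in β8ITG-cKO (backgrounds 2.75% and 4.18%). Junb differed by -2.52 ± 0.38 (adjusted p = 0.0144) and Pim1 by -2.14 ± 0.22 (adjusted p = 0.00332), against Timp1 by 2.40 ± 0.18 (adjusted p = 0.000905) and Serpina3n by 2.21 ± 0.38 (adjusted p = 0.0197). The call of Junb was lost without β8ITG-cKO 0 h replicate 2 (0.0548) or 3 (0.0670), and that of Serpina3n without WT 0 h replicate 1 (0.0516) or β8ITG-cKO 0 h replicate 2 (0.0731) or 3 (0.0854). Junb and Cebpd are also early response genes of other pathways. Photoreceptor markers moved with genotype at 24 h PCS, where all 11 were higher in β8ITG-cKO (sums of 878 to 1026 FPKM against 75.7 to 143 FPKM in WT), and their part in these results was not tested.

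The likeness of other genes to Osmr, Stat3 and Socs3 was measured over the 12 libraries as the root mean square difference of log2(FPKM + 1) after each gene's mean was subtracted, among 10879 genes. Nearest to Osmr were Gcnt2, Sphk1 and Ets1, at 0.203, 0.227 and 0.241. Nearest to Stat3 were Nav1, Arnt2 and Trip10, at 0.135, 0.135 and 0.146. Nearest to Socs3 were Sbno2, Cyr61 and Myc, at 0.317, 0.380 and 0.444. Sbno2, for example, averaged 10.8, 37.1, 3.60 and 27.5 FPKM in WT 0 h, WT 24 h, β8ITG-cKO 0 h and β8ITG-cKO 24 h, the order of levels seen in Socs3. The libraries shared by these profiles are the same 12, so likeness here is a description.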

How the data were processed

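RNA from pooled lens capsules was sequenced in 12 libraries, 3 in each of 4 groups, after stranded total RNA library preparation for low input. The submitters' processing notes name FastQC, cutadapt 1.12, TopHat2 2.1.0 and Cuffdiff 2.2.1 with builds mm10 and GRCm38.p5; the annotation and the strand setting of counting are not given in the sources used here. The authors deposited FPKM for each library and gene in 4 tables, 1 for each pair of groups, and the FPKM of a library were the same in each table that holds it. Columns holding the authors' own comparisons (means, fold changes, tests) were not used. Read counts were not used here, so depth is known only as relative values of 0.868 to 1.10 from the steps between low FPKM, and no counting interval is given.

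Tests used limma-trend with eBayes (limma 3.58.1, R 4.3.3) for each pair of groups, on log2(FPKM + 1), where the libraries fitted averaged 0.5 FPKM or more, with Benjamini-Hochberg adjustment over all genes, and the difference between changes over time was 1 fit over 12 libraries. A permutation test of 3 libraries against 3 cannot go below 0.1. The fit was tested on simulated data. Alternatives were a pseudocount of 0.1 FPKM, no filter, a minimum average of 2 FPKM, libraries scaled to a common median, a replicate block, 1 fit over 12 libraries, and each library left out. No 2 libraries of a group held the same values. Promoter windows and motif shares came from RefSeq sequences of GRCm38.p6, in which all 9 genes were found with 11 starts, and likeness was measured among genes that averaged 2 FPKM or more. Scripts ran in Python 3.11.15 (numpy 2.4.6, pandas 2.3.3, matplotlib 3.10.9, scipy 1.17.1).

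The 9 genes, the 7 pathway lists and the 10 marker lists were chosen with earlier results of these data known. All 9 genes are named in every comparison. Of each pathway list, up to 4 genes with the largest difference were named in a comparison among those that passed and had a group mean of at least 2 FPKM, and other names were added after their values were seen. Results for some genes of the pathway lists are counted but not reported by name here.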

Additional observations from a re-analysis of the deposited data

Results flagged for a closer look

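The change from 0 h to 24 h PCS differed between the genotypes, by the fit over all 12 libraries, in Stat5a and 7 of the other pathway genes named. These 7 were named because they passed. Of all 47 other pathway genes tested, 6 passed with a higher change in β8ITG-cKO and 2 with a lower one (backgrounds 6.83% and 2.56%). For Stat5a the β8ITG-cKO change minus the WT change was -0.98 ± 0.23 (SE, limma adjusted p = 0.0240), and for Stat5b, its close copy, it was -0.79 ± 0.19 (adjusted p = 0.0269). Timp1, an inhibitor of matrix metalloproteinases, had the most negative value, -2.83 ± 0.28 (adjusted p = 0.00143). The change was larger in β8ITG-cKO for the transcription factor genes Junb, 2.53 ± 0.50 (adjusted p = 0.0118), and Cebpd, 2.06 ± 0.34 (adjusted p = 0.00685), and for the kinase gene Pim1, 1.65 ± 0.30 (adjusted p = 0.00910). Ptpn1, a phosphatase gene, gave 0.75 ± 0.21 (adjusted p = 0.0499) and Socs7 gave 0.70 ± 0.19 (adjusted p = 0.0427). Junb, Pim1, Timp1, Cebpd and Stat5b also differed between genotypes at 0 h PCS, and Stat5a and Socs7 at 24 h PCS. The adjusted p of Ptpn1 was 0.0553 to 0.110 with each of the 12 libraries left out in turn. That of Socs7 was 0.0516 to 0.102 in the 11 of these 12 fits that lost the call, all but the fit without WT 0 h replicate 3. That of Stat5b was 0.0635 to 0.0674 without β8ITG-cKO 0 h replicate 2 or 3 or β8ITG-cKO 24 h replicate 1 or 2, and that of Stat5a was 0.0540 to 0.0607 without β8ITG-cKO 0 h replicate 1 or 3 or β8ITG-cKO 24 h replicate 2 or 3.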

How the results depend on the processing

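Of the 9 genes, 7 passed in WT over time and 5 to 7 did with each library left out in turn; in β8ITG-cKO 6 passed and 6 did in each of these. At 24 h PCS the count of 1 was 0 with no filter, with libraries scaled to a common median and with a replicate block, 3 in 1 fit over 12 libraries (Il6ra, Lifr and Stat5a) and 0 to 1 with libraries left out. At 0 h PCS the count of 0 was 1 with a pseudocount of 0.1 FPKM (Osmr), 2 in 1 fit over 12 libraries (Osmr and Socs3) and 0 to 2 with libraries left out. The count of 1 for the difference between changes ran from 0 to 3. Over the pathway lists, 2 genes passed at 24 h PCS, 0 with a replicate block, 5 in 1 fit over 12 libraries and 0 to 2 with libraries left out; 12 passed at 0 h PCS, 4 with no filter and 3 to 12 with libraries left out; and 8 passed for the difference between changes, 5 with no filter, 4 with a replicate block and 4 to 8 with libraries left out.

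Directions turned only for differences that lay within 0.16 of 0 in the main fit, and the turned values reached -0.29. After scaling to a common median these were Il6st (-0.14) and Lifr (-0.23) in β8ITG-cKO over time and Stat3 at 24 h PCS (-0.014). With libraries left out they were Lifr in WT, which ran from -0.13 to 0.013 (without WT 24 h replicate 2), Il6st at 24 h PCS, from -0.18 to 0.0020 (without β8ITG-cKO 24 h replicate 2), Stat3 at 24 h PCS, from -0.018 (without WT 24 h replicate 1) to 0.13, and the difference between changes of Socs1, from -0.29 (without WT 0 h replicate 1) to 0.61, with -0.087 without WT 24 h replicate 3. The causes were not tested. Rescaling moved the median of all genes from 0.16 to -0.048 in WT and from 0.23 to -0.0011 in β8ITG-cKO over time, and changed the split of calls from 3165 higher and 1335 lower to 2199 and 2447 in WT, from 5394 and 1636 to 3217 and 3008 in β8ITG-cKO, and from 867 and 99 to 770 and 226 between genotypes at 24 h PCS. Il6st in WT was the only call of the 9 genes over time that rescaling ended.

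Libraries share replicate numbers, but deviations of libraries with the same number correlated at -0.249 to 0.0962, so the numbers are not read as pairs. With the replicate block all 13 calls of the 9 genes over time remained, and the Stat5a call at 24 h PCS did not (adjusted p = 0.115). The pseudocount limits what Il6ra, Socs1 and Bcl3 can show at 0 h, where their FPKM lie near or below 1, and 3 libraries a group limit the precision of every difference.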

Other observations

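The other marker lists give the makeup of the capsules. All 7 lens epithelium markers, among them Pax6, Foxe3 and Cdh1, were above 0 in each group, and 6 of 7 fell in β8ITG-cKO and 3 of 7 in WT over time, where 1, Cdh1, rose. Between genotypes Foxe3 and Cdh1 were higher in β8ITG-cKO at 0 h PCS and Cdh1 was lower at 24 h PCS. Lens fiber markers fell in 7 of 7 genes in β8ITG-cKO and 6 of 7 in WT, from sums of 5065 to 5561 FPKM to 705 to 788 FPKM and from 3660 to 4990 FPKM to 662 to 1352 FPKM. T and B lymphocyte markers summed to at most 0.429 FPKM in any library, and 0 of 7 reached the level for testing. Muller glia and astrocyte markers summed to 85.4 to 344 FPKM. Over time 4 of 5 rose in β8ITG-cKO (background 35.4%), while in WT 0 rose and 1 fell (backgrounds 20.9% and 8.81%). Their median change was 0.95 in β8ITG-cKO and -0.97 in WT. At 24 h PCS 1 of these 5 was higher in β8ITG-cKO (background 5.64%). The 4 vascular endothelial markers summed to 5.14 to 7.09 FPKM in β8ITG-cKO 24 h against 0.740 to 2.02 FPKM in WT 24 h. Of the 4 corneal epithelium markers Aldh3a1 made up nearly the whole sum and averaged 734 FPKM in β8ITG-cKO 0 h against 240 FPKM in WT 0 h, while Krt12 (0.103 against 0.488 FPKM) and Krt5 (0.277 against 1.39 FPKM) ran the other way and Krt14 averaged 0.230 against 0.0312 FPKM. Pigment cell markers ranged from 11.5 to 83.8 FPKM over the 12 libraries. Of the corneal stroma markers Ptgds made up nearly the whole sum, at 424 to 980.3 FPKM, and Dcn was at most 2.78, Lum 0.305 and Kera 0.129 FPKM. In all, 0 of 5 pigment genes and at most 1 corneal stroma gene passed over time in either genotype in limma, and 1 pigment gene in each genotype (Tyrp1 in WT and Mlana in β8ITG-cKO) at an unadjusted p below 0.05. Between genotypes at 24 h PCS, 1 of 4 pigment genes tested was lower in β8ITG-cKO in limma (background 0.644%). At 0 h PCS 0 of 5 passed, but 4 (Dct, Mlana, Pmel and Tyrp1) were lower at an unadjusted p below 0.05 (background 24% in either direction). The median of the 5 at 0 h PCS was -1.13, beside 0.02 over all genes. The part of these marker lists in the results on receptors, STATs and SOCS genes was not tested.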
